A study of Mus musculus with 6 samples.

Results

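The 40 genes described here act in DNA replication and in mitosis, and were taken by gene symbol from the 54309 genes that the transcript tables of the series list. The list ran from the cyclins and Cdk1 through the enzymes that copy DNA to the kinases, motors and scaffolds that divide the cell, and all 40 were found and measured in every library. The tissue was the proximal part of the left sciatic nerve, on the side of the dorsal root ganglia, taken from C57BL/6 mice (C57BL6/J in the growth protocol) of 6 to 8 weeks at 24 h after axotomy, a cut through the nerve, and its messenger RNA was sequenced. There were 3 male and 3 female libraries, each a pool of the nerves of 2 mice, so that the SD and the p-values measure the spread between pools. The series asked how male and female nerves differ in their transcripts after this injury. All 6 pools were injured and no sham operation enters the comparison here, so a value describes injured nerve and not a response to axotomy.

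Dividing cells make these transcripts in waves. In late G1 and S phase the E2F factors drive genes that license replication origins, copy DNA and supply nucleotides, and in G2 and M phase the MuvB complex with B-Myb and Foxm1 drives genes that condense chromosomes, build the spindle and separate the daughter cells. Most resting cells hold few of the mitotic transcripts, and in a cut nerve Schwann cells, fibroblasts, endothelial cells and macrophages are known to be able to divide. In RNA from whole tissue, fewer cells of a kind and less RNA per cell cannot be told apart.

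The start regions of cell-cycle genes can carry the sequence elements through which that timing is known to work, and 5 of them are printed for that reason: the promoters of Ccnb1, Bub1 and Mcm2, the 3 genes that passed the test between the sexes, and those of Top2a and Mcm6, chosen after the motif counts were seen because they hold the most elements of the mitotic and of the S-phase kind. Each runs 5′ to 3′ on the strand of the gene, from 250 bases before to 50 bases after the first base of the canonical transcript (GRCm39, GENCODE M39). Capitals mark the cell cycle genes homology region (CHR, the letters TTTGAA or TTCGAA, bound by the MuvB complex), the CCAAT box (CCAAT, bound by NF-Y) and the E2F element (TTTCCCGC, TTTGGCGC, TTTCGCGC or TTTGCCGC), each searched on both strands, so that ATTGG is a CCAAT box and TTCAAA a CHR of the other strand. Ccnb1 (ENSMUSG00000041431.17 in the files) lies on the minus strand at chr13:100915153-100923116, Bub1 (ENSMUSG00000027379.14) on the minus strand at chr2:127643036-127673806 and Mcm2 (ENSMUSG00000002870.9) on the minus strand at chr6:88860452-88875762.
Ccnb1 (chr13:100923067-100923366, minus strand): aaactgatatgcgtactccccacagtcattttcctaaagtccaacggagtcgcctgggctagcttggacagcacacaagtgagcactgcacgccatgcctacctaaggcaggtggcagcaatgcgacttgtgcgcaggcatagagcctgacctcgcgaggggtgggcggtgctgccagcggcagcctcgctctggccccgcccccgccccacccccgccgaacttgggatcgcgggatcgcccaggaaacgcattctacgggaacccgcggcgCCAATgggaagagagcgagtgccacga
Bub1 (chr2:127673757-127674056, minus strand): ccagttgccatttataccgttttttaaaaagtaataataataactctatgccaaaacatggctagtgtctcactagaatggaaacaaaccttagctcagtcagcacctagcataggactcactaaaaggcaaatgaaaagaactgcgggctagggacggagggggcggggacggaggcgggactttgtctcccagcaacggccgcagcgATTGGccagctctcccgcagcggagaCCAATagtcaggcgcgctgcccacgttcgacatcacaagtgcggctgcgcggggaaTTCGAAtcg
Mcm2 (chr6:88875713-88876012, minus strand): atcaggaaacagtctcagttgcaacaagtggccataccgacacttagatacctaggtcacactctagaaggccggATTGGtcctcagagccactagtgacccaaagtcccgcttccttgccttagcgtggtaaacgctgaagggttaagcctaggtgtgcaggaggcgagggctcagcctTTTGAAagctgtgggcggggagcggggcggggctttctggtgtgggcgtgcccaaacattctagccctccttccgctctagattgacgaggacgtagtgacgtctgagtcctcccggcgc
Top2a (chr11:98914992-98915291, minus strand): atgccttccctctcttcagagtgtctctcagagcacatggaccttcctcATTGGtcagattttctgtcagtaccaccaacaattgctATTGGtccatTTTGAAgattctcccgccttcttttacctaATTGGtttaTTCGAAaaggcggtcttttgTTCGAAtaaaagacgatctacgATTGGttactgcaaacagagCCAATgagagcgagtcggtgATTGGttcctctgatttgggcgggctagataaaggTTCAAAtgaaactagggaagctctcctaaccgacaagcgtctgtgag
Mcm6 (chr1:128287403-128287702, minus strand): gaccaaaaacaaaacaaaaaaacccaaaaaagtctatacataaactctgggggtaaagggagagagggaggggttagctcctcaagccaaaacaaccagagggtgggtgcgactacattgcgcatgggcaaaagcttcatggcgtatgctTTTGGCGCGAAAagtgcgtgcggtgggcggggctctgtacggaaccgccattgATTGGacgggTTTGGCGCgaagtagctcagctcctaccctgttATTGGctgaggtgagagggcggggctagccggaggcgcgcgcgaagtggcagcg

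The Ccnb1 window held 1 CCAAT box, whose first letter was base 24 of the transcript, and the letters of neither CHR nor E2F element. The Bub1 window held 2 CCAAT boxes, which began 41 and 15 bases before the start on opposite strands, and a CHR at base 42 of the transcript. In the Mcm2 window a CHR began 70 bases before the start and a CCAAT box 175 bases before it. Top2a stood out for its 4 CHR and 6 CCAAT letters, while the Mcm6 window held 3 E2F elements, of which 2 overlap on opposite strands from 100 and 96 bases before the start, and 2 CCAAT boxes.

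Over all 40 genes, CHR letters were in 15 windows (37.5%), against 18.7% of the 21757 windows of protein-coding genes of the same length, and CCAAT letters in 26 windows (65.0%), against 39.9%. The CHR was in 13 of the 24 genes of G2 and M phase (54.2%) and in 2 of the 16 genes of late G1 and S phase (12.5%). For the E2F letters the order was the other way round, with 6 of the 16 genes of late G1 and S phase (37.5%) and 1 of the 24 genes of G2 and M phase (4.17%), Cdk1, against 2.82% of all windows. The Mcm genes 3, 4, 5 and 6 each held at least 2 E2F elements, as did E2f1 itself. These matches describe letters and not binding.

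The libraries were deep, with 69848769, 56486909 and 51936195 estimated counts in males 1, 2 and 3 and 49158283, 54434147 and 64802091 in females 1, 2 and 3. The single genes of the list had 66 to 8184 counts in a library, and 35 of the 40 had at least 100 in every one. Sex transcripts followed the labels with traces of the other sex in some libraries: Xist had 6 to 193 counts in males and 26310 to 40851 in females, and the Y-linked Ddx3y had 2268 to 3743 counts in males but also 139 in female 3, with none in the other two females. The pools also differed in tissue make-up. The 8 Schwann cell markers summed to 34190 to 41000 CPM (counts scaled to library size) in males and 14080 to 17890 CPM in females, and 7 of 8 markers of central neurons were called higher in males, at 20.01 to 42.2 CPM in males and 5.84 to 11.1 CPM in females in sum.

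The mitotic and replication genes lay lower in males than in females nearly throughout, and the median difference was larger for the mitotic ones. Of the 40 genes, 38 had a negative log2 fold change (male minus female) and the median was -0.49, beside -0.03 over the 18424 genes tested. Only 3 passed the test across all genes, edgeR's quasi-likelihood test at an adjusted p under 0.1: Ccnb1, Bub1 and Mcm2, all lower in males. That is 7.5% of the list, near the 5.27% of all tested genes called in either direction. By direction, 3 of 40 compares with 1.46% of tested genes called lower in males, and 0 of 40 with 3.81% called higher. With male 2, male 3, female 1 or female 2 left out in turn, none of the 3 was called. Those fits called 4.032%, 0.037%, 0.0053% and 1.721% of all genes. The other 2 tools used below, DESeq2 and limma-voom, called 11.24% and 4.635% of all genes with an adjusted p, in either direction.

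More genes lay past an unadjusted threshold. At an unadjusted p under 0.05 there were 21 of the 40 (52.5%), all lower in males, where 9.68% of tested genes were lower at that level, and beside the 3 called genes, 9 of them had an adjusted p of 0.10 to 0.15, of which 8 were mitotic, from 0.101 for Cenpe upward. In 15 genes (37.5%) every male library lay below every female library in CPM, which 11.5% of tested genes did. The 24 genes of G2 and M phase had a median of -0.71, with 2 called, 16 at an unadjusted p under 0.05 and 11 whose sexes did not overlap. The 16 genes of late G1 and S phase had a median of -0.27, with 1 called, 5 at an unadjusted p under 0.05 and 4 whose sexes did not overlap. All 15 genes that were lower by at least 1.5-fold in males were genes of G2 and M phase. The difference between the phases was not tested.

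**Figure D1:**
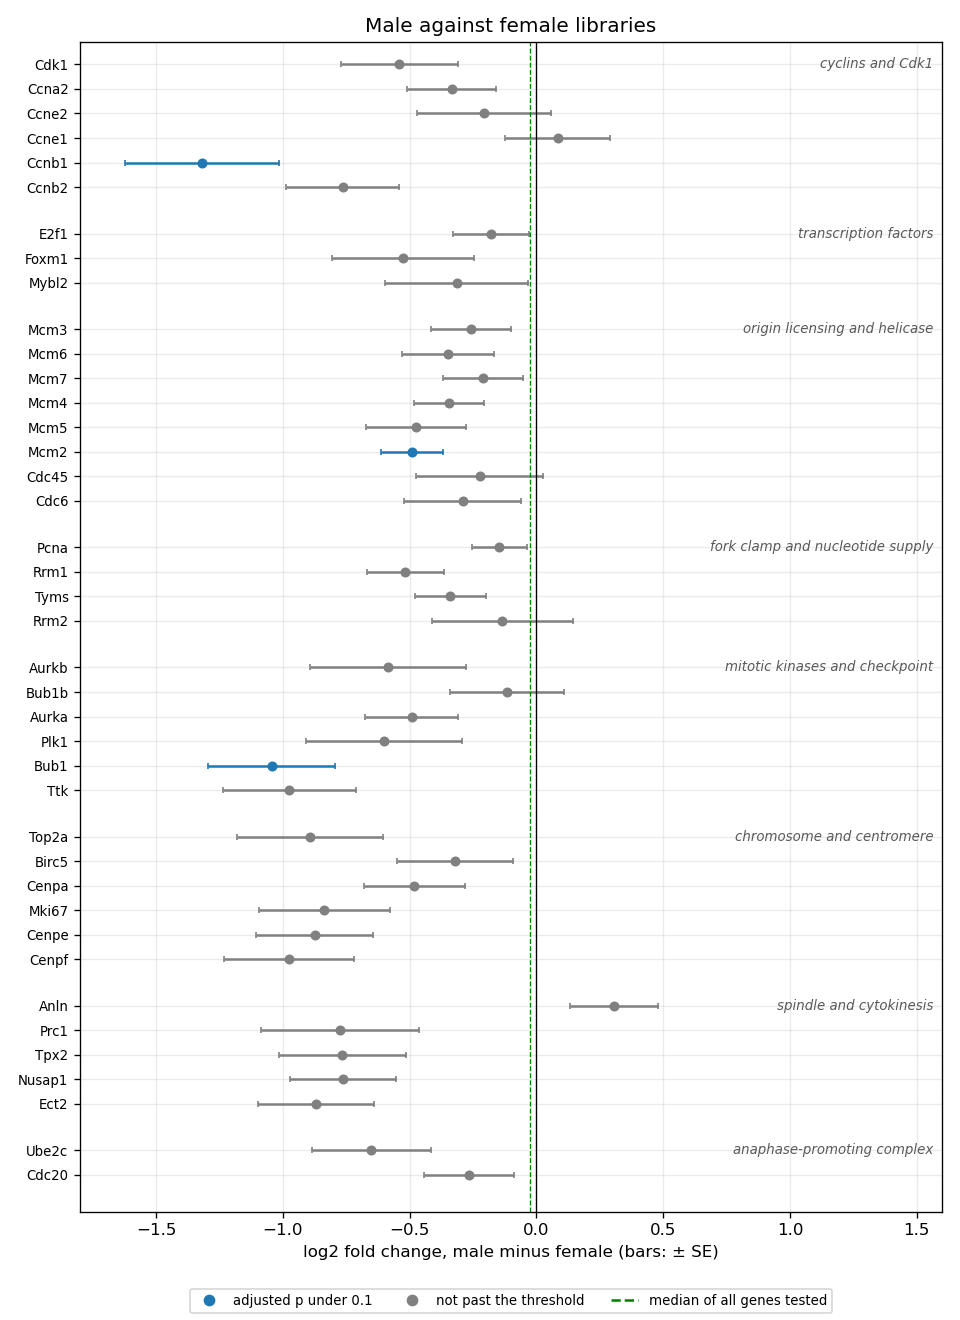
Fitted log2 fold change, male minus female, of each of the 40 genes with its standard error (edgeR, 3 male and 3 female libraries), grouped by role. Blue points passed an adjusted p under 0.1 (Ccnb1, Bub1, Mcm2), and 38 of 40 points lie left of 0, where the dashed line at -0.03 is the median of all genes tested.

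Per transcript length, the genes of the S-phase machinery were the most abundant. The TPM measure, which corrects counts for transcript length and so allows genes to be compared, averaged 155.5 ± 23.7 for Pcna (SD, n = 6 libraries), the sliding clamp that holds the polymerases on DNA, and Pcna alone made up 32.4% to 36.3% of the summed TPM of the 40 genes. The next in order was Mcm3 with 28.6 ± 5.30 TPM, followed by Rrm1 with 24.95 ± 2.51 TPM and Tyms with 19.4 ± 4.57 TPM. From Mcm3 down to Cenpe each gene overlapped its next neighbour over the 6 libraries, so their order holds only in broad steps. The 1 clear break was between Pcna, whose lowest library had 129.7 TPM, and Mcm3, whose highest had 36.4 TPM. At the low end, 30 genes averaged under 10 TPM and 18 under 5 TPM, down to 1.04 ± 0.667 TPM for Cenpe and 0.378 ± 0.206 TPM for Cenpf, both encoding very long kinetochore proteins.

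The minichromosome maintenance proteins, Mcm2 to Mcm7, form the ring that unwinds DNA at the fork. Mcm2 passed the test, with 21.3, 20.1 and 17.2 CPM in males 1, 2 and 3, against 29.3, 27.8 and 25.2 CPM in females 1, 2 and 3. Every male pool lay below every female pool, and within each sex the third library was the lowest. The log2 fold change was -0.49 ± 0.12 (SE), 1.41-fold lower in males, with an edgeR adjusted p of 0.0928. With an offset for the mean transcript length of the gene in each library, it was -0.36 with an adjusted p of 0.168.

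The other ring subunits had values in the same direction that did not pass. Mcm5 had 30.0, 26.2 and 18.9 CPM in males, against 40.8, 35.1 and 28.5 CPM in females. Mcm4, another subunit, had 36.7, 31.8 and 28.1 CPM in males, against 45.1, 42.4 and 35.2 CPM in females. In both genes male 1 reached above female 3, so the sexes overlapped, at log2 fold changes of -0.48 ± 0.20 and -0.34 ± 0.14 and edgeR adjusted p-values of 0.230 and 0.219. Mcm6 and Mcm7 followed at -0.35 ± 0.18 and -0.21 ± 0.16. The 2 other genes of origin licensing and of the helicase were close to these. Cdc6, which brings the ring to origins, had a log2 fold change of -0.29 ± 0.23. Cdc45, which joins the ring to make the active helicase, had one of -0.22 ± 0.25.

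Mcm3 shows how the measure enters. In CPM it had 38.6, 34.8 and 27.9 in males, against 45.6, 42.0 and 33.6 in females, a log2 fold change of -0.26 ± 0.16 (edgeR adjusted p = 0.395). In TPM it had 36.4, 32.1 and 25.5 in males, against 22.7, 30.5 and 24.2 in females. The direction of its 2 means thus turned with the correction for length, and with the length offset the fitted log2 fold change was 0.32 (adjusted p = 0.335). The share of Mcm3 reads that Salmon assigned to coding transcripts was 77.6% to 78.8% in males and 83.8% to 96.0% in females, the rest going to retained-intron transcripts.

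**Figure D2:**
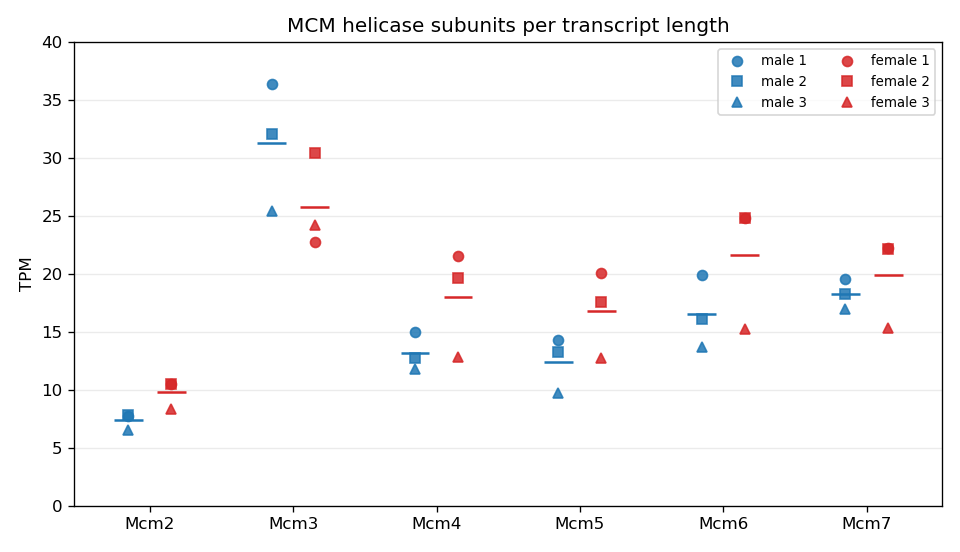
Level of the 6 subunits of the MCM helicase in TPM (y axis from 0), by sex, with 1 point per library and a line at the mean of 3 libraries. Mcm2 was the lowest subunit in all 6 libraries, at 6.56 to 7.79 TPM in males and 8.34 to 10.5 TPM in females, and Mcm3 alone had a higher mean in males.

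Although the ring holds its subunits in equal number, their transcripts were not at one level. Mcm2 was the lowest of the 6 subunits in every library and Mcm3 the highest in 5 of 6, female 1 having Mcm6 on top. Mcm3 was at 2.17 to 4.71 times the TPM of Mcm2, and the 6 libraries showed 4 different orders of the subunits.

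Among the genes of the fork and of nucleotide supply, 0 of 4 passed edgeR's test, with 2 at an unadjusted p under 0.05, and 1 passed that of DESeq2 and 0 that of limma-voom. Pcna had 121.5, 120.7 and 99.8 CPM in males, against 129.0, 126.9 and 122.6 CPM in females, so that the sexes stood apart by little, at a log2 fold change of -0.15 ± 0.11 (edgeR adjusted p = 0.480). Rrm1, the large subunit of ribonucleotide reductase, had 42.7, 35.03 and 38.1 CPM in males, against 62.5, 59.8 and 43.6 CPM in females. In CPM its sexes did not overlap either, with female 3 just above male 1, and its log2 fold change was -0.52 ± 0.15 with an edgeR adjusted p of 0.124. In TPM it had 23.1, 24.4 and 22.5 in males, against 28.5, 27.6 and 23.6 in females, so that the sexes overlapped, and with the length offset its log2 fold change was -0.15 (edgeR adjusted p = 0.424).

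Tyms, the thymidylate synthase, had 15.5, 14.4 and 11.8 CPM in males, against 18.9, 17.7 and 16.1 CPM in females (-0.34 ± 0.14, edgeR adjusted p = 0.226). All male pools were below all female pools, yet only 54.6% to 67.2% of its reads went to coding transcripts. Rrm2, the small subunit of the reductase, is the one that S-phase cells make and destroy in each cycle, and it was spread 1.98-fold among males alone, at a log2 fold change of -0.13 ± 0.28.

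Among the cyclins that bring cells into S phase, Ccne1 was near 0 between the sexes, and none passed edgeR's test. Ccne1, a cyclin E that activates Cdk2 at the end of G1, averaged 4.06 ± 0.720 CPM in males and 3.84 ± 0.583 CPM in females (SD, n = 3 each), at a log2 fold change of 0.08 ± 0.21. Its partner gene Ccne2 was at -0.21 ± 0.27, and with the length offset at -0.64 (edgeR adjusted p = 0.356). Ccna2, the cyclin A of S and G2 phase, was at -0.33 ± 0.18. E2f1, the S-phase transcription factor, had 15.3, 15.8 and 11.8 CPM in males, against 16.1, 14.7 and 17.7 CPM in females (-0.18 ± 0.15, edgeR adjusted p = 0.535). It was one of 2 genes in which female 3 had the highest level of the females.

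Cyclin B1 gave the largest difference of the list. Ccnb1, whose protein activates Cdk1 to start mitosis, fell to 2.76, 1.42 and 2.18 CPM in males, against 6.95, 4.87 and 4.10 CPM in females. No male pool reached the lowest female pool, and the log2 fold change was -1.32 ± 0.30, 2.50-fold lower in males, with an edgeR adjusted p of 0.0791. Ccnb2, the other cyclin B, had 1.573, 1.54 and 1.31 CPM in males, against 3.01, 2.16 and 2.35 CPM in females. It did not overlap between the sexes but missed the threshold, at -0.76 ± 0.22 and an adjusted p of 0.123. The annotated pseudogene of Ccnb2 took at most 6.90% of the count of its parent in a library, and that of Ccnb1 was at 0 counts.

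Their kinase was less clearly apart. Cdk1 had 10.2, 9.15 and 7.92 CPM in males, against 17.0, 13.7 and 9.13 CPM in females. Female 3 lay among the males, and the log2 fold change was -0.54 ± 0.23 (edgeR adjusted p = 0.238). Foxm1, the transcription factor of the mitotic genes, showed the same pattern with 6.75, 4.72 and 4.52 CPM in males, against 9.67, 8.45 and 4.93 CPM in females (-0.53 ± 0.28, adjusted p = 0.329). Mybl2, which encodes B-Myb, was at -0.31 ± 0.28, and of the 3 transcription factors 0 passed by edgeR, DESeq2 or limma-voom and 0 had an unadjusted p under 0.05 by edgeR.

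**Figure D3:**
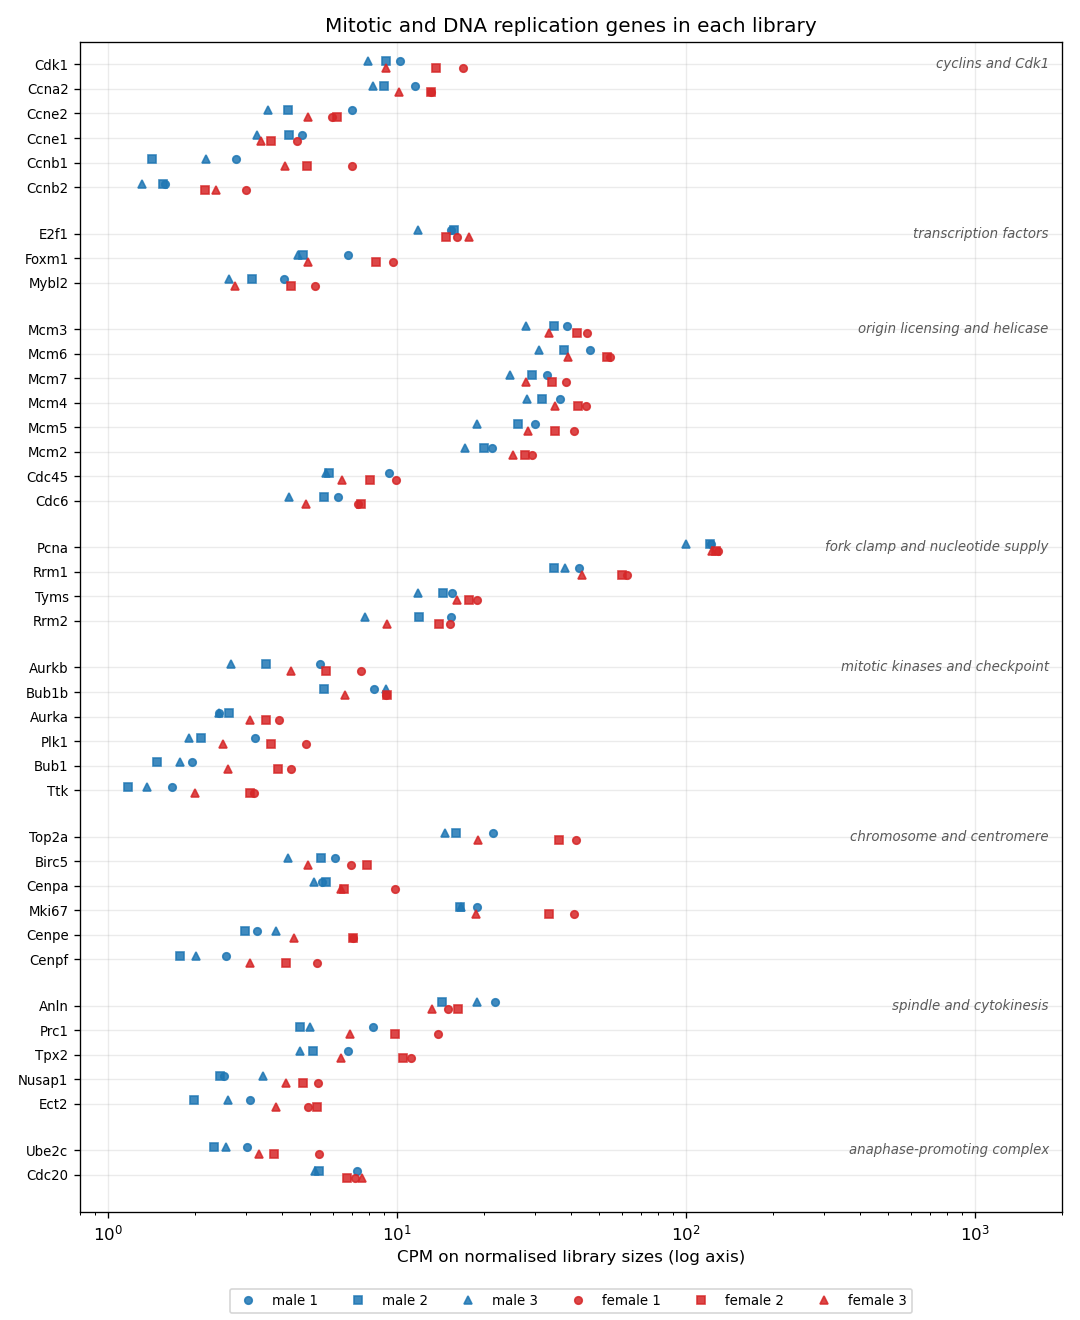
CPM on normalised library sizes (log axis) of the 40 genes in each of the 3 male (blue) and 3 female (red) libraries, grouped by role. In 15 genes, among them Ccnb1 at 1.42 to 2.76 CPM in males and 4.10 to 6.95 CPM in females, no male point reaches a female one, while in 22 genes female 3 (red triangle) lies inside the range of the males.

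Of the mitotic kinases, Bub1 passed the test. Bub1, which holds the spindle checkpoint at unattached kinetochores, fell to 1.94, 1.47 and 1.77 CPM in males, against 4.28, 3.86 and 2.59 CPM in females. The sexes did not overlap, the log2 fold change was -1.05 ± 0.25, 2.06-fold lower in males, and the edgeR adjusted p was 0.0844. Ttk, the kinase Mps1 of the same checkpoint, had 1.66, 1.17 and 1.37 CPM in males, against 3.18, 3.08 and 2.00 CPM in females. Its groups were also apart, at -0.97 ± 0.26, with an adjusted p of 0.105.

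The Aurora kinases gave smaller values. Aurka, which matures the spindle poles, had 2.42, 2.62 and 2.42 CPM in males, against 3.89, 3.53 and 3.09 CPM in females, without overlap (-0.49 ± 0.18, edgeR adjusted p = 0.188). Aurkb, the kinase of the chromosomal passenger complex, had 5.40, 3.51 and 2.67 CPM in males, against 7.48, 5.65 and 4.30 CPM in females, and there male 1 lay above female 3 (-0.59 ± 0.31, adjusted p = 0.322). Plk1, which acts from mitotic entry to cytokinesis, was at -0.60 ± 0.31. Bub1b, whose protein BubR1 is part of the inhibitor made by the checkpoint, was the exception among the kinases at -0.11 ± 0.23, male 3 having 9.13 CPM and female 3 having 6.60 CPM.

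The genes of the chromosomes and centromeres had the lowest median of the 8 roles, -0.86. Of its 6 genes 0 passed edgeR's test and 5 had an unadjusted p under 0.05, while 4 passed that of DESeq2 and 0 that of limma-voom. Cenpe, a kinesin that carries chromosomes to the spindle equator, had 3.27, 2.98 and 3.82 CPM in males, against 7.05, 7.04 and 4.39 CPM in females. Cenpf, a kinetochore protein of G2 and M phase, had 2.55, 1.77 and 2.01 CPM in males, against 5.27, 4.13 and 3.09 CPM in females. In neither gene did the sexes overlap, and the log2 fold changes were -0.88 ± 0.23 and -0.98 ± 0.26, with edgeR adjusted p-values of 0.101 and 0.102.

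Top2a and Mki67 are the usual markers of cycling cells. Top2a, the topoisomerase that untangles sister chromatids, had 21.5, 15.9 and 14.7 CPM in males, against 41.7, 36.2 and 19.0 CPM in females. Mki67, which encodes the Ki-67 antigen on the surface of mitotic chromosomes, had 18.9, 16.5 and 16.7 CPM in males, against 40.9, 33.6 and 18.8 CPM in females. In both genes females 1 and 2 stood well above all males and female 3 among them, and the log2 fold changes were -0.89 ± 0.29 and -0.84 ± 0.26 with edgeR adjusted p-values of 0.148 and 0.136. With the length offset the value of Top2a was -0.40. Cenpa, the histone H3 variant of centromeres, was at -0.48 ± 0.20, although 26.0% to 43.7% of its reads went to its coding transcripts. Birc5, the survivin of the passenger complex, was at -0.32 ± 0.23.

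Spindle and cytokinesis genes split into 4 with lower and 1 with higher values in males. By edgeR 0 of the 5 passed, 4 having an unadjusted p under 0.05, by DESeq2 4 did and by limma-voom 0. Ect2, which switches on RhoA at the cell equator, had 3.09, 1.99 and 2.59 CPM in males, against 4.92, 5.28 and 3.82 CPM in females (-0.87 ± 0.23, edgeR adjusted p = 0.102). Nusap1, a protein that bundles spindle microtubules, had 2.51, 2.43 and 3.43 CPM in males, against 5.33, 4.73 and 4.14 CPM in females (-0.76 ± 0.21, adjusted p = 0.107). Both were without overlap between the sexes. Of the Ect2 reads of male 2, 28.7% went to coding transcripts, while in the other 5 libraries at least 98.2% did. Prc1, which crosslinks the central spindle, was at -0.77 ± 0.31 and Tpx2, the activator of Aurora A at the spindle, at -0.77 ± 0.25.

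Anln ran the other way. Anillin, the scaffold of the contractile ring, which is also found in the septin filaments of central myelin, had 21.8, 14.3 and 18.9 CPM in males, against 14.96, 16.3 and 13.2 CPM in females. Male 2 lay among the females, and the log2 fold change was 0.31 ± 0.17 with an edgeR adjusted p of 0.359. Over all genes tested 3.81% were called higher in males. Of the 8 Schwann cell markers 7 had a positive log2 fold change and 3 were called higher in males. Among the 3 was the myelin gene Mbp with a log2 fold change of 1.13 and an edgeR adjusted p of 0.0592. Of the 7 oligodendrocyte markers tested all 7 had a positive log2 fold change, and 5, Cnp among them, were called higher in males. The summed level of that list was 1171, 993.0 and 1204 CPM in males and 650.9, 743.3 and 782.1 CPM in females. Most of that sum was Cnp and Mag, with 844.0 and 318.4 CPM in male 1 and 443.9 and 206.5 CPM in female 1. It is therefore mainly a level of these 2 genes and gives no amount of oligodendrocyte RNA. In that list Mobp, a gene of central myelin, had 6.32, 18.4 and 19.4 CPM in males, against 0.449, 0.709 and 0.620 CPM in females, while Ermn and Olig2 were at 0 counts in all 3 females. The part of these markers in the Anln value was not tested.

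The 2 genes of the anaphase-promoting complex were Ube2c, the enzyme that supplies its ubiquitin, and Cdc20, its activator in mitosis, and 0 of them passed by edgeR (1 at an unadjusted p under 0.05), DESeq2 or limma-voom. Ube2c had 3.03, 2.32 and 2.55 CPM in males, against 5.37, 3.74 and 3.33 CPM in females, without overlap (-0.65 ± 0.24, edgeR adjusted p = 0.180). Cdc20 had 7.27, 5.37 and 5.19 CPM in males, against 7.17, 6.70 and 7.57 CPM in females (-0.26 ± 0.18, adjusted p = 0.432). It was the second gene in which female 3 was the highest female.

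The libraries of each sex differed from each other in nearly the same order for most of these genes. Male 1 was the highest male in 34 of 40 genes and male 3 the lowest in 27. Female 1 was the highest female in 31 genes and female 3 the lowest in 37, whereas over all tested genes female 3 was the lowest female in 40.9% and male 1 the highest male in 33.5%. In female 3 the level of a gene was in the median 0.722 times the mean of females 1 and 2, with 0.488 for Top2a as the lowest of the 40 and 1.15 for E2f1 as the highest, and in 22 genes it lay inside the male range. The highest library of a sex was in the median 1.43 times the lowest in males and 1.48 times in females.

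Summed over the 40 genes, the level was 613.9, 527.3 and 468.4 CPM in males and 785.0, 721.3 and 574.6 CPM in females. Male 1 thus had a higher sum than female 3. As a mean of log2 CPM about the mean of each gene, the mitotic genes stood at -0.08, -0.47 and -0.40 in males and at 0.60, 0.39 and -0.04 in females, and the genes of late G1 and S phase at 0.12, -0.13 and -0.41 in males and at 0.32, 0.20 and -0.10 in females. Male 1 and female 3 lay close together in the mitotic genes on this measure, at -0.08 and -0.04, and in summed CPM of the mitotic genes male 1 (166.4) lay above female 3 (153.7). In the genes of late G1 and S phase male 1 lay above female 3 on the log2 measure as well.

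Markers of other cells moved with these libraries in part. The 8 macrophage markers summed to 628.8, 914.6 and 570.9 CPM in males and 1486, 1070 and 744.4 CPM in females. In this sum females 1 and 2 were highest as in the mitotic genes. Mrc1 weighed most in the females, with 552.9, 339.6 and 197.2 CPM, against 130.7, 179.8 and 142.6 CPM in males. Not every marker followed this order: Cd14 had 91.9, 94.1 and 33.6 CPM in males and 138.3, 56.1 and 104.6 CPM in females. Of the 8, 6 had a negative and 2 a positive log2 fold change. Cx3cr1 was the only one of the 8 called by edgeR and was higher in males. The 8 endothelial markers summed to 381.0, 348.5 and 342.3 CPM in males and 464.1, 451.6 and 309.8 CPM in females, and 1 of them, Plvap, was called lower in males. No marker of either list was at 0 in a library. The part of macrophages and endothelial cells in the result was not tested.

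Fat and muscle also differed between pools. The adipocyte markers summed to 53.2, 282.9 and 120.8 CPM in males and 633.8, 361.1 and 87.1 CPM in females, with 0 of 7 tested markers called by edgeR (2 at an unadjusted p under 0.05, both lower in males), 1 by DESeq2 and 0 by limma-voom. The skeletal muscle markers summed to 6.18, 3.32 and 537.7 CPM in males and 316.9, 450.3 and 29.5 CPM in females, Myh4 and Mybpc2 being called lower in males of 7 tested, and Myh4 was at 0 in male 3 and Myh2 at 0 in male 1. The satellite cell gene Pax7 was at 0 in all males and at 6 counts or fewer in females. With the mean level of the muscle markers as a term in the fit the median of the 40 genes was -0.42, and with that of the adipocyte markers, a term added after the data were seen, it was -0.33, with 0 genes called by edgeR in either fit and 9 at an unadjusted p under 0.05 in each.

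**Figure D4:**
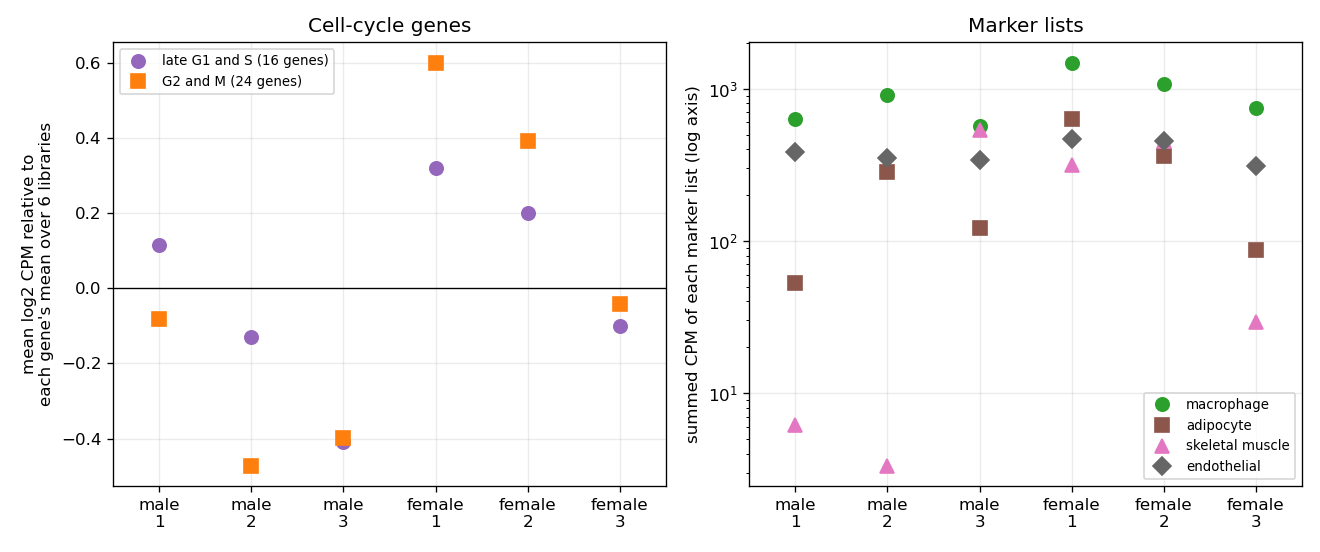
Left, mean log2 CPM of the 16 genes of late G1 and S phase and of the 24 genes of G2 and M phase in each library, relative to the mean of each gene over the 6 libraries. Right, summed CPM (log axis) of macrophage, adipocyte, skeletal muscle and endothelial markers in the same libraries, where female 1 is highest of the 6 for macrophage, adipocyte and endothelial markers as it is for both groups of cell-cycle genes.

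A wider list of 81 further cell-cycle genes, all of them tested, gave similar values. It was chosen with earlier results of these data known and measured in the same libraries, so it is not independent support. Of these, 6 were called lower in males and 0 higher (7.41%, beside 1.46% called lower and 5.27% called in either direction over all genes tested), 74 had a negative log2 fold change and the median was -0.39. Without male 1 there was 1 call (beside 3.416% of all genes in that fit) and without female 3 there were 21 (beside 13.69%). Without any 1 of the other 4 libraries there were 0, beside 0.0053% to 4.032% of all genes. In 32 genes (39.5%, beside 11.5% of all genes tested) every male pool lay below every female pool and in 1, Pttg1, every male pool lay above. Several genes of both lists, Nusap1, Cenpe, Kif15, Kif22, Kif23 and Ska1, had been named by the study as reduced in males. The study set axotomy against sham surgery within each sex, a contrast unlike male against female. Its libraries include these samples, so that these genes were not chosen independently of them.

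The mitotic kinesins, motors that move chromosomes and slide spindle fibres, held 4 of the 6 calls, of 12 measured, beside 1.46% of all genes tested called lower in males. Kif4, a motor of chromosome arms and of the central spindle, fell to 1.43, 1.84 and 1.97 CPM in males, against 4.90, 4.40 and 2.77 CPM in females (-1.20 ± 0.27, edgeR adjusted p = 0.0728). Kif11, the motor that pushes the spindle poles apart, fell to 4.76, 3.67 and 3.98 CPM in males, against 10.5, 9.91 and 5.90 CPM in females (-1.08 ± 0.24, adjusted p = 0.0750). Kif20b and Kif23 were the other 2 called, and in 11 of the 12 kinesins every male pool lay below every female pool, as in 11.5% of all genes tested. Espl1, the separase that cuts cohesin, was 1 of 20 other regulators called (-1.01 ± 0.25, adjusted p = 0.0921), and Smc2, the core of condensin, 1 of 7 condensin genes (-0.72 ± 0.18, adjusted p = 0.0890).

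Among 28 further replication genes 0 were called by edgeR, with 6 at an unadjusted p under 0.05, all lower in males, and a median of -0.30, while DESeq2 called 5 and limma-voom 0. Among 14 kinetochore and checkpoint genes 0 were called by edgeR, with 1 at an unadjusted p under 0.05 and a median of -0.40, while DESeq2 called 1 and limma-voom 0. Pttg1, the securin that holds separase inactive, had 26.4, 25.4 and 24.3 CPM in males, against 19.0, 21.3 and 21.2 CPM in females. It was named after its values were seen, and its log2 fold change of 0.31 ± 0.11 had an adjusted p of 0.160.

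The 3 calls depended on single libraries and on the processing. Without male 1 only Ccnb1 was called, and without male 2, male 3, female 1 or female 2 none of the 40 genes was called by edgeR, with 14, 12, 11 and 14 at an unadjusted p under 0.05. Of all genes, 3.416% were called without male 1 and 4.032% without male 2. Without male 3, female 1 or female 2 it was 0.037%, 0.0053% and 1.721% of all genes. Without female 3, 16 of the 40 genes were called, beside 13.69% of all genes. All 16 were lower in males, among them Ccnb1, Bub1 and Mcm2. Over these 6 fits the log2 fold change stayed between -1.56 and -1.07 for Ccnb1, between -1.23 and -0.90 for Bub1 and between -0.56 and -0.41 for Mcm2. The Wald test of DESeq2 called 14 of the 40 genes, beside 11.24% of all genes, and limma-voom 2, beside 4.635%. At an adjusted p under 0.05 edgeR called 0.

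**Figure D5:**
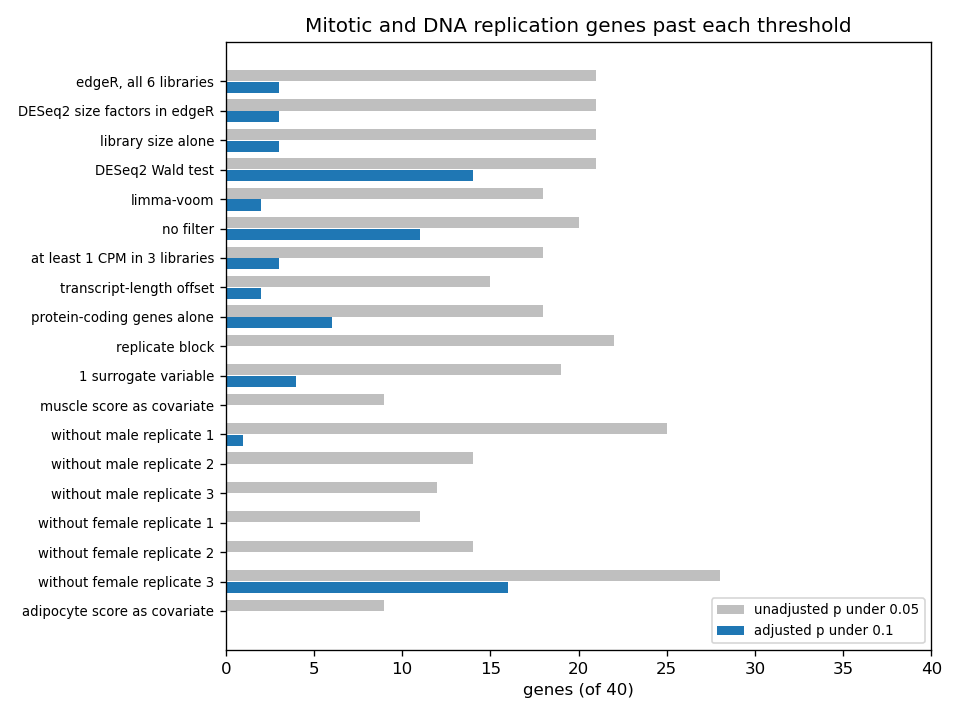
Number of the 40 genes past an unadjusted p under 0.05 (grey bars) and past an adjusted p under 0.1 (blue bars) under each way of processing, from edgeR on all 6 libraries (21 and 3 genes) downward. The called genes range from 0 to 16, and the genes at an unadjusted p under 0.05 from 9 to 28.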

How the data were processed

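RNA was read from stranded poly-A (TruSeq) paired-end libraries. The submitters' processing notes name Trimmomatic 0.39, Salmon 1.5.2 and MultiQC 1.9, and the study states quantification on a GENCODE mouse release of GRCm39. The authors deposited, for each of 140789 transcripts, the estimated count, which is not normalised and need not be whole, the TPM, which is corrected for length and scaled to 1 total per library, and the effective length. Salmon shares reads between transcripts and between near copies of a gene.

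Counts and TPM were summed per gene, and counts were rounded. Libraries were grouped by the sex in their labels, male against female. The filterByExpr step of edgeR 4.0.16 (R 4.3.3) kept 18424 of 54309 genes, all 40 genes of the list among them. After TMM normalisation, edgeR's quasi-likelihood test was run with sex as its single term on 3 libraries per sex, with Benjamini-Hochberg adjustment across the 18424 genes and the study's threshold of 0.1. The SE is the log2 fold change divided by the square root of F, and CPM are on TMM-normalised library sizes. The test was checked on simulated data with 192 changed genes. There it recovered 88.3% of 4-fold and 43.9% of 2-fold changes and made 20 false calls.

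The 40 genes, the 81 further cell-cycle genes and the marker lists were chosen with earlier results of these data known. All 40 are named. Values per library are given for those past the threshold and, in each role, for up to 2 more with the smallest p and the one with the highest mean TPM. Mki67 is an addition to this rule, made after its values were seen.

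Promoter windows came from the GRCm39 genome and GENCODE M39, a later release than that of the files. Alternatives were each library left out, an adjusted p under 0.05, a muscle score as a covariate, 1 surrogate variable by sva 3.50.0, a block for the replicate number, protein-coding genes alone, a length offset, other filters, limma-voom (limma 3.58.1), scaling by library size or by DESeq2 size factors, and DESeq2 1.42.0 itself. An adipocyte score as a covariate was added after the data were seen. No library was a copy of another.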

Additional observations from a re-analysis of the deposited data

How the results depend on the processing

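The direction of the list held under all settings run: the median log2 fold change of the 40 genes was -0.58 to -0.33, beside -0.49. The number called did not hold. By DESeq2 it was 14, without a filter 11 and among protein-coding genes alone 6, and with the muscle score, with the adipocyte score and at an adjusted p under 0.05 it was 0. For the 81 further cell-cycle genes, with 6 called, DESeq2 gave 16, no filter 13, 1 surrogate variable 3 and limma-voom 2, and both scores and the stricter threshold gave 0. For all genes, with 971 called (5.27%), DESeq2 gave 2397 (11.24%, 950 lower and 1447 higher in males) and no filter 1617 (5.221%). The muscle score gave 643, the adipocyte score 78 and the stricter threshold 284. Leaving out 1 library gave 0 to 16 calls among the 40 genes, 0 to 21 among the further cell-cycle genes and 1 to 2612 among all genes. The highest of each was without female 3, where 13.69% of all genes were called. The cause was not tested. Where a library is left out, its sex keeps 2 libraries.

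Mcm3 turned direction with the length offset, from -0.26 to 0.32. The other genes that turned were at smaller values: Ccne1 with the muscle score (-0.016), Bub1b with the muscle score (0.16) and Rrm2 with the adipocyte score (0.013). With 1 library left out in turn, Ccne1 ran between -0.035 (without male 1) and 0.22, turning also without female 3 (-0.00052), Rrm2 between -0.38 and 0.090 (without male 3), turning also without female 1 (0.0096), and Bub1b between -0.26 and 0.10 (without male 2). Bub1 was not called by limma-voom (adjusted p = 0.105) nor with 1 surrogate variable (adjusted p = 0.101).

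Libraries with the same replicate number did not deviate together (correlations of -0.04, -0.30 and -0.29), so the numbers do not pair them. With the replicate number as a block edgeR called 0 of the 40 genes (22 at an unadjusted p under 0.05), 0 of the further cell-cycle genes and 56 of all genes. Gene values that lean on non-coding transcripts depend on how Salmon divided the reads. Among them were Cenpa, Tyms, Mcm3 and, in part, Rrm1, Top2a, Cdk1, Cdc6, Ttk and, in male 2, Ect2. The coding share of the Top2a reads was 77.8% to 95.1%.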

Other observations

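Some genes of the wider cell-cycle list, chosen after their values were seen, lay just outside the threshold without overlap between the sexes. Knl1, the kinetochore scaffold to which Bub1 binds, had 1.53, 0.957 and 1.03 CPM in males, against 4.06, 3.81 and 1.62 CPM in females (log2 fold change -1.43 ± 0.38, edgeR adjusted p = 0.104). Cdc25c, a phosphatase that activates Cdk1, had the lowest log2 fold change of the 81, -1.66 ± 0.45 (adjusted p = 0.106), at under 2 CPM in every library. Of the replication genes, Pola1, the catalytic subunit of the polymerase that starts new strands, had 13.1, 12.9 and 12.5 CPM in males, against 21.1, 20.8 and 15.1 CPM in females (-0.57 ± 0.15, adjusted p = 0.104). Dnmt1, which copies DNA methylation at the fork, had 48.1, 47.4 and 42.8 CPM in males, against 75.5, 65.6 and 52.0 CPM in females (-0.48 ± 0.14, adjusted p = 0.125).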
